A study of Vitis vinifera with 18 samples.

Results

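In ripe grape berries, 139 transcript clusters stood at least 2-fold higher at the Sicily site than at both other sites in the variety Aglianico, while their levels in Cabernet Sauvignon stayed nearly flat across the same 3 sites. They were chosen from 13971 clusters that had 20 or more counts in all 17 libraries used, out of 97442 clusters in the table. Counts were divided by median-of-ratios size factors and log2 transformed, and the mean of each variety at each site was taken. A member had to exceed both the Molise and the Campania mean in Aglianico at Sicily by 1 or more on the log2 scale. The smaller of those 2 excesses, called the Sicily excess here, also had to be larger than the absolute difference between Molise and Campania. In Cabernet Sauvignon the highest site mean had to lie less than 0.6 above the lowest. These site means chose the members, so the Sicily excess and the flatness in Cabernet Sauvignon are described here and not tested.

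The study sampled fully ripe fruit of Vitis vinifera, from vines in the open field in southern Italy, to examine how genotype and growing site act together on the berry transcriptome. Both varieties are red wine grapes, and both were grown at Campania, Molise and Sicily, with 3 biological replicates for each variety and site. All vines were bush trained at a height of 0.5 m, so training is shared by every group. RNA came from 10 whole berries without seeds per replicate, so skin and pulp were measured together. Total counts per library ran from 22637307 to 31859647.

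Ripening in grape brings sugar accumulation, softening, loss of acids and, in red varieties, anthocyanin synthesis in the skin. Temperature, light and water supply are known to alter the berry transcriptome, and varieties can respond to a site to different extents, which is called genotype by environment interaction. The table names its features only by cluster number, where a cluster usually groups transcripts that share sequence. None of the 139 identifiers matched a gene annotation used here, so no gene name or function is given to any member. Because whole berries were extracted, fewer cells of a type and less RNA per cell cannot be told apart in any of the levels given here.

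The libraries were not all alike. The library labelled Aglianico Campania replicate 3 was not used to choose the members, and its levels are described separately. Of the 3 Cabernet Sauvignon Sicily libraries, 1 carries no replicate number in the table and is called the unnumbered library. The number of clusters with 10 or more counts was 29212 in the unnumbered library and 45079 in replicate 2 of that group, against 19155 to 25443 in the other libraries. Calls, placements and differences at Sicily are also given with Cabernet Sauvignon Sicily replicate 3 as the sole library of its group, which is then assumed to vary like the other groups.

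In all, 563 clusters met the Aglianico conditions, and 139 of them, or 24.7%, were also flat in Cabernet Sauvignon. Flatness by the same limit held for 54.7% of the clusters over the count minimum. The other 424 clusters with a Sicily excess in Aglianico varied by 0.6 or more between sites in Cabernet Sauvignon. Applied in mirror image, the rule gave 110 clusters lower at Sicily in Aglianico only, 188 higher at Sicily in Cabernet Sauvignon only and 62 lower there in Cabernet Sauvignon only. Of the clusters that met the first condition of each mirrored rule, 25.6% to 27.6% were flat in the other variety, so the share of 24.7% lay close to those of the other patterns.

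The Sicily excess ranged from 1.00 to 3.13 on the log2 scale, with a median of 1.28. It reached 1.5 or more in 48 members and 2 or more in 14. Molise and Campania differed little in Aglianico, by a median absolute value of 0.22, and Molise was the higher of the pair in 84 members and the lower in 55. The Cabernet Sauvignon site means spanned 0.03 to 0.60, with a median of 0.39. At the edge of the rule, Cluster-27903.38868 had the smallest excess kept, 1.003, and Cluster-27903.37970 the largest one left out, 0.998. On the flatness limit, Cluster-27903.40861 was kept with a range of 0.599 and Cluster-27903.32712 was left out with 0.612. These last clusters mark the limit and were chosen after their values were seen.

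In all 139 members the 3 Aglianico Sicily libraries lay above the 5 other Aglianico libraries used, a pattern seen in 13.2% of the clusters over the count minimum. In 89 members they lay above all 14 other libraries of both varieties, against 4.70% of the clusters over the count minimum. The edgeR quasi-likelihood test called 135 members higher at Sicily than at Molise in Aglianico, where 8.94% of the 29738 clusters tested were called, and 129 higher than at Campania, where 6.44% were called. Between Molise and Campania it called 3 members in Aglianico, where 1.42% of all clusters were called. In Cabernet Sauvignon it called 1 member between Sicily and Molise, where 20.4% of all clusters were called, and 2 between Sicily and Campania, where 20.9% were called. The difference between the varieties in their Sicily response was called higher in Aglianico for 123 members, with 7.42% of all clusters called in that direction. The rule used all of these contrasts, so the counts describe the selection.

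**Figure D1:**
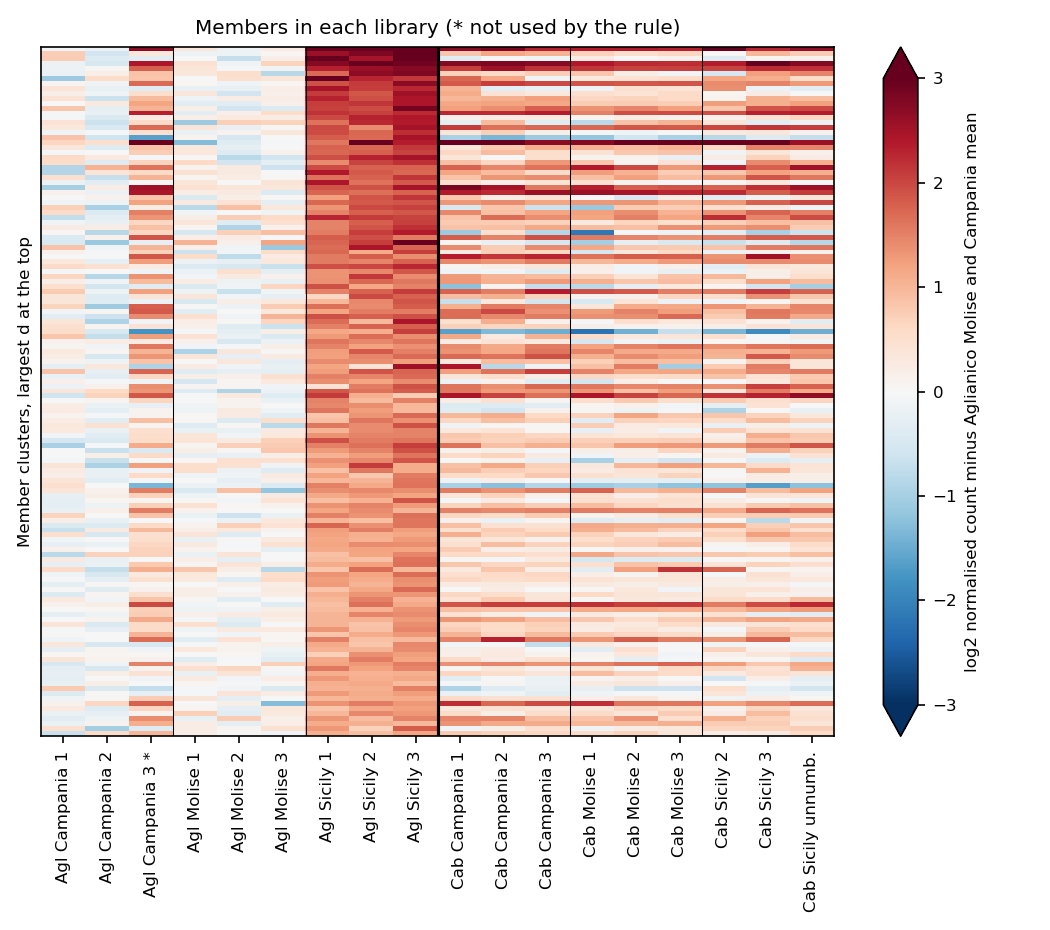
Levels of the 139 members (rows, largest Sicily excess at the top) in the 18 libraries (columns), as log2 normalised count minus the mean of Aglianico Molise and Campania. The 3 Aglianico Sicily columns are red from top to bottom, the other Aglianico columns used by the rule are mostly pale, and Cabernet Sauvignon rows keep much the same colour across sites, some red, some pale and a few blue.

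Measured from each member's mean in Aglianico at Molise and Campania, the median member stood at 1.37, 1.46 and 1.62 on the log2 scale in Aglianico Sicily replicates 1, 2 and 3. In Aglianico Molise the medians were 0.07, -0.01 and 0.13, and in Aglianico Campania replicates 1 and 2 they were 0.07 and -0.15. The Cabernet Sauvignon libraries lay between these levels. Their medians were 0.70, 0.69 and 0.62 at Campania and 0.52, 0.56 and 0.58 at Molise. At Sicily they were 0.58 in the unnumbered library, 0.50 in replicate 2 and 0.68 in replicate 3. The median over all clusters above the count minimum stayed between -0.007 and 0.021 in the 18 libraries. The size factors are medians of ratios over these clusters, so the scaling itself holds this median near 0.

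**Figure D2:**
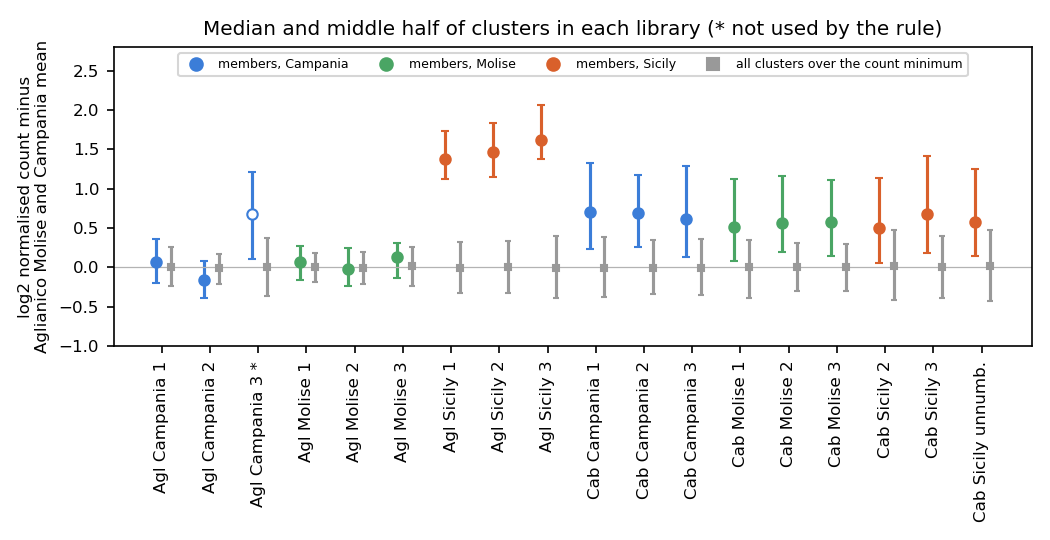
Median (points) and interquartile range (bars) of log2 normalised count minus the Aglianico Molise and Campania mean, in each library, for the 139 members (coloured by site) and for all 13971 clusters over the count minimum (grey squares). Aglianico Sicily libraries sit at 1.37 to 1.62, Cabernet Sauvignon libraries at 0.50 to 0.70 at every site, and the grey squares near 0, where the scaling holds them.

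The level of Cabernet Sauvignon was placed differently from member to member. Its mean over the sites lay between the Aglianico levels in most members, nearer to the Molise and Campania level in 65 and nearer to the Sicily level in 39. It lay above Aglianico Sicily in 16 members and below Aglianico Molise and Campania in 19. With replicate 3 as the sole Cabernet Sauvignon Sicily library, these counts were 60, 49, 14 and 16. Among the 14 members with an excess of 2 or more, Cabernet Sauvignon lay between the Aglianico levels in 13 and below them in 1.

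The varieties were compared within a site with edgeR's quasi-likelihood method. These contrasts use the libraries that chose the members. A Sicily excess of 1 or more in Aglianico and a range under 0.6 in Cabernet Sauvignon force the Cabernet Sauvignon minus Aglianico difference to be lower at Sicily than at Molise and Campania by more than 0.4 in every member. The order of the contrasts below, with the difference lower at Sicily, is therefore set by the rule and is no result. Opposite signs are favoured by the rule but not forced. What the rule left free is the overall level of Cabernet Sauvignon beside the Aglianico levels. It also favours a high Aglianico mean at Sicily and low Aglianico means at Molise and Campania. Calls of Cabernet Sauvignon as lower at Sicily, or as higher at the other sites, are thereby favoured over their shares among all tested clusters. The counts and p-values therefore describe the members and do not test that placing.

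At Sicily, Cabernet Sauvignon was lower than Aglianico in most members. At an adjusted p under 0.05, 86 members were called, where 32.2% of all tested clusters were. Of these, 85 members were lower, where 11.4% of all tested clusters were called in that direction. Only 1 member was higher, where 20.8% of all tested clusters were called. The median difference was -0.81 on the log2 scale, against -0.01 over the clusters above the count minimum. The 3 libraries of each variety did not overlap in 97 members with Cabernet Sauvignon lower, against 23.9% of clusters over the count minimum, and in 2 members with it higher, against 24.2%. With replicate 3 as the sole Cabernet Sauvignon Sicily library, 43 members were called, all of them lower, and the share of all tested clusters called was 9.72%. That library lay below all Aglianico Sicily libraries in 107 members and above them in 14, against 36.0% and 36.1% of clusters over the count minimum.

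At Molise and Campania, averaged in 1 contrast, most of the called members were higher in Cabernet Sauvignon. In all, 77 members were called, where 23.3% of all tested clusters were. Cabernet Sauvignon was higher than Aglianico in 74 members, where 12.0% of all tested clusters were called, and lower in 3, where 11.3% were called. The median difference was 0.60, against -0.00 over the clusters above the count minimum. The libraries of the varieties did not overlap in 53 members with Cabernet Sauvignon higher, against 6.33% of clusters over the count minimum, and in 2 with it lower, against 6.40%. Taken by site, the median difference was 0.48 at Molise, with Cabernet Sauvignon higher in 110 of 139 members, and 0.74 at Campania, with it higher in 119. Adding the library labelled Aglianico Campania replicate 3 lowered the number called to 51, of which 49 were higher and 2 lower, while the share of all tested clusters called was 14.6%.

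Both contrasts were also read together, beside the share of all tested clusters with the same joint call. In 31 members Cabernet Sauvignon was lower at Sicily and higher at Molise and Campania, a joint call of 0.861% of all tested clusters. The median differences in these 31 were -0.83 at Sicily and 0.73 at the other sites. In 51 members the call at Sicily alone passed, lower in Cabernet Sauvignon, with medians of -1.35 and 0.18, against 6.91% of all tested clusters. In 42 members the call at Molise and Campania alone passed, higher in Cabernet Sauvignon, with medians of -0.15 and 1.40, again against 6.91%. A call that did not pass does not show that the varieties were alike there: in this last class the Sicily differences of Cluster-27903.32864 and Cluster-27903.41408 were -0.71 and 0.76. In 3 members Cabernet Sauvignon was lower in both contrasts (3.64% of all tested clusters), in 1 it was higher in both (4.26%), and in 11 neither call passed (54.6%). With replicate 3 as the sole Cabernet Sauvignon Sicily library, the counts were 11 lower and higher, 29 at Sicily alone, 61 at Molise and Campania alone, 3 lower in both and 35 in neither. The shares of all tested clusters in that fit were 0.228%, 1.33%, 9.19%, 1.55% and 72%.

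**Figure D3:**
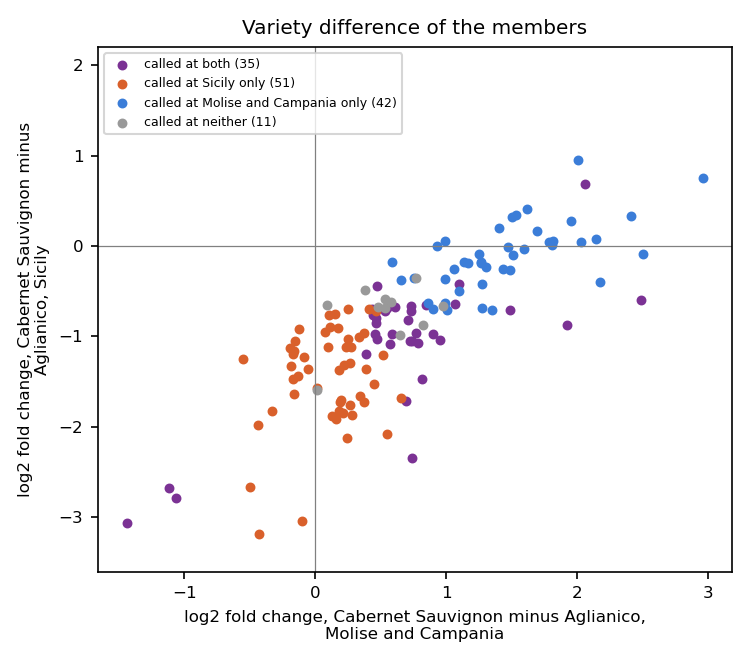
Log2 fold change of Cabernet Sauvignon against Aglianico at Molise and Campania (x axis) and at Sicily (y axis) for the 139 members, coloured by which of the edgeR calls passed. Most points lie right of 0 and below 0. The 42 members called at Molise and Campania alone lie around or a little below 0 on the y axis, and the 51 called at Sicily alone lie around 0 on the x axis.

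Named members show these patterns in single libraries, with Cabernet Sauvignon Sicily values in the order unnumbered library, replicate 2, replicate 3. Cluster-27903.24746 had the largest Sicily excess, 3.13 on the log2 scale. Its normalised counts in Aglianico were 298, 276 and 375 at Sicily, 41.0, 29.1 and 38.5 at Molise, and 30.4 and 28.1 at Campania. In Cabernet Sauvignon they were 200.4, 268 and 157 at Sicily, 169, 167 and 162 at Molise, and 213, 228 and 163 at Campania. Every Cabernet Sauvignon library thus lay below the Aglianico Sicily libraries and above all other Aglianico libraries used. Cabernet Sauvignon was higher at Molise and Campania by 2.49 ± 0.18 (log2, SE; edgeR adjusted p = 6.63e-07). At Sicily the difference was -0.60 ± 0.22 (edgeR adjusted p = 0.0471), a call that was lost in 19 of 26 alternative settings, among them the fit with 1 Cabernet Sauvignon Sicily library (adjusted p = 0.0523).

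Cluster-27903.35744 had the next largest excess, 2.86. Its Aglianico counts were 1410.3, 1641 and 2492 at Sicily, 210.1, 211 and 245 at Molise, and 388 and 158 at Campania. In Cabernet Sauvignon they were 389, 238 and 467 at Sicily, 378, 336 and 359 at Molise, and 409, 524 and 479 at Campania. The Aglianico Sicily libraries stood apart from all others, and the remaining libraries used by the rule lay between 158 and 524, with Aglianico and Cabernet Sauvignon partly overlapping. The difference at Sicily was -2.34 ± 0.32 (edgeR adjusted p = 0.000159). At Molise and Campania it was 0.74 ± 0.23 (edgeR adjusted p = 0.0325), a call lost in 8 of 26 alternative settings, among them leaving out Aglianico Campania replicate 2 (0.48, adjusted p = 0.278).

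The members that drew the most counts in Aglianico Sicily were Cluster-27903.32864 and Cluster-27903.32579; transcript lengths are not in the table, so this order is of counts and not of levels per length. Cluster-27903.32864 had Aglianico counts of 798591, 748487 and 1411078 at Sicily, 221181, 129133 and 143574 at Molise, and 339714 and 156505 at Campania. In Cabernet Sauvignon they were 761063, 344068 and 706337 at Sicily, 490441, 526620 and 454450 at Molise, and 447418, 502807 and 662494 at Campania. At Sicily the varieties overlapped, with a difference of -0.71 ± 0.36 (edgeR adjusted p = 0.148). At Molise and Campania every Cabernet Sauvignon library exceeded every Aglianico library used, by 1.35 ± 0.28 in the fit (edgeR adjusted p = 0.00314).

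Cluster-27903.32579 had Aglianico counts of 766741, 531125 and 1001954 at Sicily, 95064, 59008 and 109454 at Molise, and 160829 and 71236 at Campania. In Cabernet Sauvignon they were 103574, 74049 and 101660 at Sicily, 113071, 93990 and 104339 at Molise, and 73962, 93930 and 87817 at Campania. Outside Aglianico Sicily the varieties overlapped, and the difference at Molise and Campania was -0.10 ± 0.23 (edgeR adjusted p = 0.801). At Sicily the difference was -3.04 ± 0.33 on the log2 scale (edgeR adjusted p = 3.29e-05). These members drew counts of the same order in Aglianico Sicily. With 1 Cabernet Sauvignon Sicily library the Sicily differences were -0.47 (adjusted p = 0.582) for Cluster-27903.32864 and -2.91 (edgeR adjusted p = 0.00408) for Cluster-27903.32579, and -1.98 (adjusted p = 0.013) for Cluster-27903.35744.

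Among members with no overlap between the varieties at Sicily, the largest differences were those of Cluster-27903.35117 and Cluster-27903.30582. Cluster-27903.35117 had Aglianico counts of 479, 594 and 1454 at Sicily, 292, 158 and 322 at Molise, and 103 and 65.3 at Campania, while Cabernet Sauvignon ranged from 70.0 to 149 over its 9 libraries. It also had the largest gap between Molise and Campania of all members, 1.59. Its Sicily excess of 1.60 was barely larger, so it passed that condition of the rule narrowly. The difference at Sicily was -3.19 ± 0.42 (edgeR adjusted p = 0.000133), and that at Molise and Campania was -0.43 (edgeR adjusted p = 0.322).

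Cluster-27903.30582 was lower in Cabernet Sauvignon at every site. Its Aglianico counts were 2111, 2007 and 3886 at Sicily, 897, 779 and 1068 at Molise, and 1389 and 685 at Campania, and the Cabernet Sauvignon libraries ranged from 201 to 586. The difference was -3.06 ± 0.39 at Sicily (edgeR adjusted p = 0.000129) and -1.44 ± 0.27 at Molise and Campania (edgeR adjusted p = 0.00196). Cluster-27903.34012 had the same order, with 826, 636 and 888 in Aglianico Sicily, 255, 257 and 219 in Aglianico Molise, 412 and 287 in Aglianico Campania, and 91.9 to 156 in Cabernet Sauvignon. Its differences were -2.79 ± 0.20 at Sicily (edgeR adjusted p = 1.16e-06) and -1.06 ± 0.14 at Molise and Campania (edgeR adjusted p = 0.000106). With 1 Cabernet Sauvignon Sicily library the Sicily differences of Cluster-27903.35117, Cluster-27903.30582 and Cluster-27903.34012 were -2.93, -3.37 and -3.08, with edgeR adjusted p of 0.0193, 0.0119 and 6.47e-05.

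The opposite placing was clearest in Cluster-27903.32648 and Cluster-27903.41408. Cluster-27903.32648 had Aglianico counts of 1980, 2560 and 2173 at Sicily, 403, 267 and 463 at Molise, and 256 and 209 at Campania. In Cabernet Sauvignon they were 1955, 1492 and 2879 at Sicily, 1540, 1366 and 1346 at Molise, and 1978, 2033 and 1934 at Campania. The varieties overlapped at Sicily, with a difference of -0.09 ± 0.22 (edgeR adjusted p = 0.809), or 0.37 with 1 Cabernet Sauvignon Sicily library (adjusted p = 0.364). They were far apart at Molise and Campania, with Cabernet Sauvignon higher by 2.50 ± 0.18 (edgeR adjusted p = 7.04e-07).

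Cluster-27903.41408 had Aglianico counts of 175, 586 and 297 at Sicily, 23.7, 45.2 and 56.0 at Molise, and 91.3 and 81.4 at Campania, against 348 to 846 over the 9 Cabernet Sauvignon libraries. The Aglianico Sicily replicates varied widely and replicate 2 reached into the Cabernet Sauvignon range. Cabernet Sauvignon was higher at Molise and Campania by 2.96 ± 0.35 (edgeR adjusted p = 4.75e-05). At Sicily the difference was 0.76 ± 0.41 (edgeR adjusted p = 0.176). Without Aglianico Sicily replicate 2 it was 1.34 (adjusted p = 0.027), and with 1 Cabernet Sauvignon Sicily library it was 0.76 (adjusted p = 0.394).

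The member called higher in Cabernet Sauvignon at Sicily was Cluster-27903.23950, singled out after its values were seen. Its difference was 0.68 ± 0.21 at Sicily (edgeR adjusted p = 0.0221) and 2.06 ± 0.17 at Molise and Campania, and it was not called at Sicily with 1 Cabernet Sauvignon Sicily library. The member with the smallest excess, Cluster-27903.38868, had Aglianico counts of 418, 371 and 451 at Sicily, 228, 205 and 186 at Molise, and 126 and 295 at Campania, against 232 to 341 in Cabernet Sauvignon. Its differences of -0.69 ± 0.24 at Sicily (edgeR adjusted p = 0.039) and 0.55 ± 0.18 at the other sites (edgeR adjusted p = 0.0392) passed the threshold, but these calls were lost in 9 and 13 of 26 alternative settings, the former also with 1 Cabernet Sauvignon Sicily library (-0.77, adjusted p = 0.197).

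**Figure D4:**
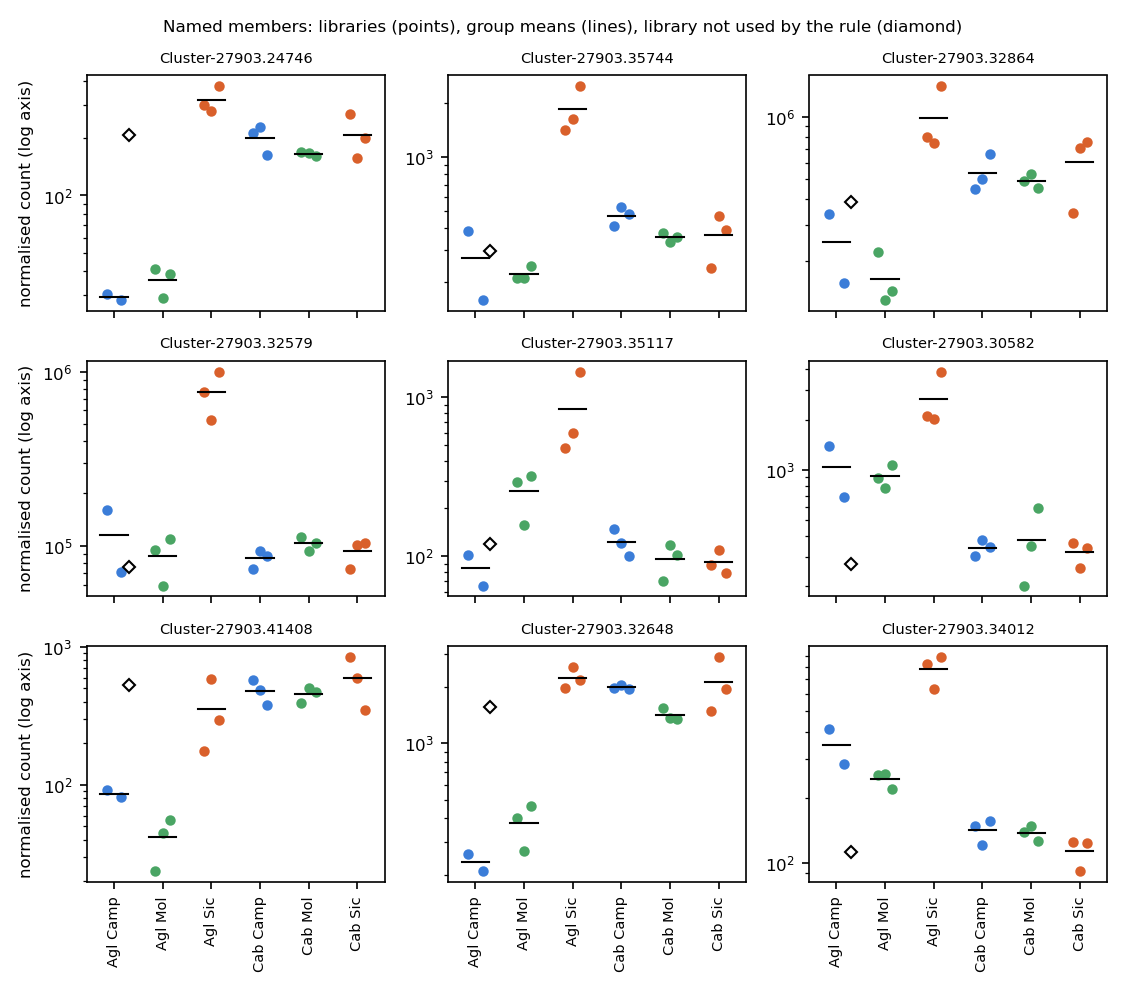
Normalised counts (log axis) of 9 named members by variety and site, with points for libraries, lines for group means and a diamond for the library labelled Aglianico Campania replicate 3. Cabernet Sauvignon sits near the lower Aglianico level in Cluster-27903.32579, near the Aglianico Sicily level in Cluster-27903.32648 and below all Aglianico points used by the rule in Cluster-27903.34012; the diamond is nearer to the Cabernet Sauvignon Campania mean than to the Aglianico Campania mean in every panel but that of Cluster-27903.35744.

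The members together took a larger share of the sequenced counts in Aglianico Sicily, as the rule sets. They held 6.80%, 5.61% and 7.75% of all counts there, 1.89%, 1.48% and 1.67% in Aglianico Molise, and 2.46% and 1.62% in Aglianico Campania. Cluster-27903.32864 alone made up 3.01% ± 0.65 (SD, n = 3) of the Aglianico Sicily counts. Without it, the members held 3.72% ± 0.54 in Aglianico Sicily, 1.02% ± 0.10 in Aglianico Molise and 1.08% ± 0.22 (SD, n = 2) in Aglianico Campania. The corresponding share in Cabernet Sauvignon was 1.36% ± 0.08 at Campania, 1.39% ± 0.09 at Molise and 1.14% ± 0.16 at Sicily (SD, n = 3 each). The median of the members' mean normalised count was 350 against 488 over the clusters above the count minimum, and 12 of the 139 were among the 1000 clusters with the most counts, as were 7.16% of the clusters over the count minimum.

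Replicates of a group did not carry the members equally. The rule selects on group means, so a replicate that runs high in Aglianico Sicily helps a cluster to pass, and these values are a description. Aglianico Sicily replicate 3 was the highest of its group for 84 members, or 60.4%, against 37.3% of the clusters over the count minimum. Without it the rule gave 124 clusters, of which 113 were among the 139. Cabernet Sauvignon Sicily replicate 3 was the highest of its group for 63 members, or 45.3%, against 29.8%. The median SD between replicates, on the log2 scale, was 0.25 in Aglianico Sicily for the members and 0.20 for the clusters over the count minimum. In Cabernet Sauvignon Sicily the median SD was 0.25 for both.

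The library labelled Aglianico Campania replicate 3, which the rule left out, held the members at Cabernet Sauvignon levels. Their median difference from Aglianico Campania replicates 1 and 2 was 0.74 on the log2 scale, and from the Cabernet Sauvignon Campania mean it was -0.03. The median absolute distance was 0.77 to the former and 0.17 to the latter. The Cabernet Sauvignon Campania libraries lay 0.17 to 0.22 from the mean of their own group mates. The left-out library was nearer to Cabernet Sauvignon for 118 members and nearer to Aglianico for 21, and nearer to Cabernet Sauvignon for all 50 members whose varieties differed by 1 or more at Campania. Over the clusters above the count minimum, 78.2% were nearer to Cabernet Sauvignon. In 61 members the Aglianico Sicily mean exceeded this library by 1 or more.

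**Figure D5:**
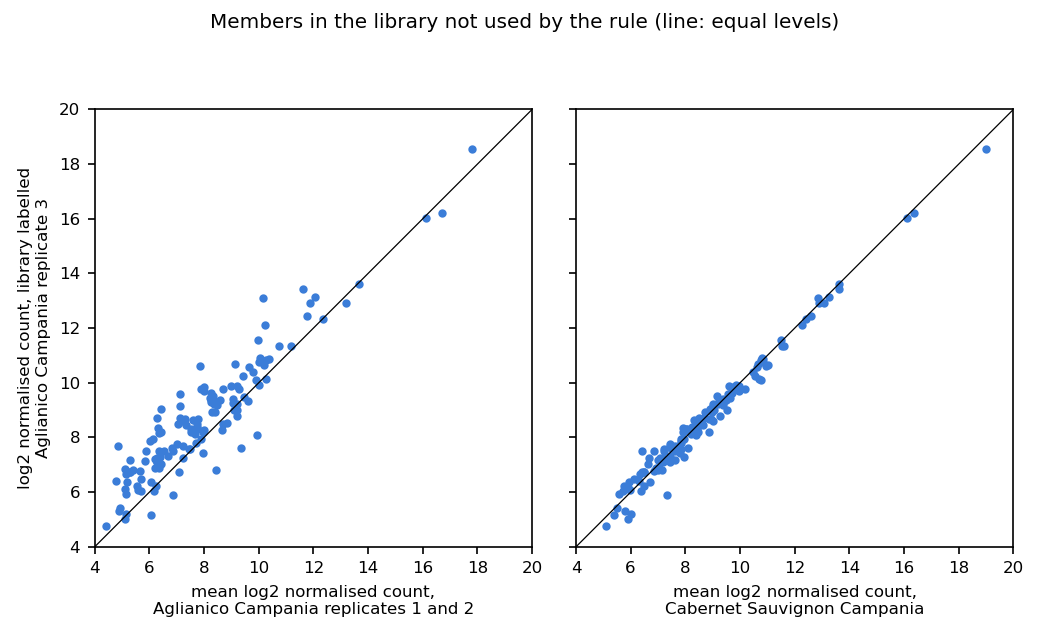
Log2 normalised counts of the 139 members in the library labelled Aglianico Campania replicate 3 (y axis) against the mean of Aglianico Campania replicates 1 and 2 (left) and of the 3 Cabernet Sauvignon Campania libraries (right), with a line of equal levels. Points lie mostly above the line on the left, by a median of 0.74, and along it on the right, by a median of -0.03.

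The flatness in Cabernet Sauvignon partly rests on its Sicily libraries. With replicate 3 as the sole Cabernet Sauvignon Sicily library and the same scaling, 111 of the 139 members still spanned less than 0.6, with a median range of 0.43, and the same limit held for 55.9% of the clusters over the count minimum.

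Members sometimes carried neighbouring cluster numbers. Of 199 clusters over the count minimum that directly neighbour a member by number, 11 were members themselves, or 5.53%, where 0.995% of all clusters over the count minimum were members. These 11 members formed 6 neighbouring pairs. A run of consecutive numbers was formed by Cluster-27903.41308, Cluster-27903.41309 and Cluster-27903.41310, picked out after their values were seen, with Sicily excesses of 1.62, 1.99 and 1.66. The correlation of log2 levels over the 17 libraries ranged from 0.11 to 0.96 among the 6 pairs. The rule gives all members a Sicily excess in Aglianico, which favours positive correlation. Correlations of members without neighbouring numbers are not given here, so these values say nothing particular about neighbours. The files do not say whether neighbouring numbers share sequence, so reads split between near-identical clusters cannot be told apart from separate genes. Values that were not whole numbers, which arise when reads are shared between transcripts, made up 32.7% of the members' values and 31.9% over the clusters above the count minimum.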

How the data were processed

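The authors deposited expected counts per transcript cluster for 18 libraries; per the submitters' processing notes, CASAVA 1.8, RSEM and DESeq2 were used, with no order given. The assembly behind the clusters is not given in the sources used here. Because RSEM can split reads between similar clusters, counts of near-identical clusters are uncertain. Counts were rounded and tested in edgeR 4.0.16 (R 4.3.3; filterByExpr, robust quasi-likelihood, 6 group means, 17 libraries, Benjamini-Hochberg over 29738 clusters), scaled by the size factors of the selection rule; levels use the deposited values. Alternatives used TMM, upper-quartile scaling, DESeq2 1.42.0 and other filters, libraries and cutoffs. Code was tested on simulated counts with 100 clusters changed at each fold. There the Sicily variety contrast recovered 18% of 2-fold and 79% of 4-fold changes, so it can miss real differences. Far fewer of the 29371 simulated clusters were changed than the 32.2% called in the data. The same adjusted p threshold is then harder to pass, so these shares do not measure how much the real fit missed. The labels call replicates biological. A chi-square over clusters found no pair among the 18 libraries, within or across groups, that agreed within sampling noise. Same-numbered libraries were not treated as paired in the main fit.

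The members and all rules were chosen with earlier results of these data known. Clusters were named as the 2 with the largest Sicily excess, the 2 with the highest mean in Aglianico Sicily, up to 2 per direction and variety contrast among called members without overlap between libraries, and those at the edge of the rule. No gene list could be used because 0 identifiers matched the RefSeq gene table, and no sequence is shown.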

Additional observations from a re-analysis of the deposited data

Results flagged for a closer look

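The library labelled Aglianico Campania replicate 3, which entered neither the choice of members nor the main tests, carried the members at a median of 0.74 on the log2 scale above Aglianico Campania replicates 1 and 2. The members were chosen with low values in those replicates. Over all clusters above the count minimum, the median absolute distance of this library was 0.396 to Aglianico Campania and 0.149 to Cabernet Sauvignon Campania, so its levels departed across the library and not in the members alone. The part played by its label in this difference was not tested.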

How the results depend on the processing

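The counts of members called and the median differences of the members in both variety contrasts kept their direction in every alternative run. Those runs kept the same members, chosen with the libraries of the main fit by a rule that favours these directions. The persistence of the directions is therefore no test of them. Other counts were recomputed only where stated. The rule gave 71 clusters with a Cabernet Sauvignon range under 0.4 and 216 with one under 0.8, and 124 to 157 when single libraries were left out. With TMM scaling the rule gave 154 clusters, of which 131 were among the members described here. With upper-quartile scaling it gave 133, of which 111 were among them. With Aglianico Campania replicate 3 added it gave 112, of which 106 were among them. Membership thus depended in part on the scaling and on that library. When single libraries were left out of groups of 3, calls at Sicily ranged from 70 to 88. The shares of all tested clusters called in those fits ran from 23.3% to 33.0%. Calls at Molise and Campania ranged from 69 to 78 in the same fits, with shares from 19.1% to 26.6%. Leaving out Aglianico Campania replicate 1 or 2 leaves 1 library in that group. The low-count filter then kept 55802 or 56086 clusters in place of 29738. Fewer members, and a smaller share of all tested clusters, were then called at Molise and Campania. Calls at Sicily fell to 43 without both doubted Cabernet Sauvignon libraries, the unnumbered one and replicate 2, and calls at Molise and Campania fell to 51 with Aglianico Campania replicate 3; fewer libraries, or a library at other levels, entered those fits.

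The median difference at Sicily was -0.92 with TMM and -0.97 with upper-quartile scaling, which shifted all clusters by -0.11 and -0.16. Relative to all clusters it was -0.80 under each. That value could not change, because a scaling moves all clusters of a library by the same amount. Leaving out single libraries gave -0.91 to -0.75 at Sicily and 0.49 to 0.65 at Molise and Campania, where adding Aglianico Campania replicate 3 gave 0.48. A fit without a low-count filter called 66 and 62 members (6.02% and 4.01% of all clusters), and DESeq2 called 89 and 78 (27.3% and 21.2%).

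With the replicate block, 71 members were called at Sicily (26.6% of all tested clusters) and 75 at Molise and Campania (23.0%). That fit also leaves out the unnumbered library, without which 72 (27.0%) and 74 (23.3%) were called with no block. Whether the numbers pair the libraries was not settled. In deviations from group means, 16 of 35 same-numbered pairs correlated above 0.1 (median 0.08, range -0.28 to 0.38). So did 22 of 71 pairs with other numbers (median -0.04, range -0.46 to 0.44). On average, 13 of 16 numbered libraries correlated more with their own number than with others. Deviations within such small groups are tied to each other, so these correlations cannot decide on pairing. The lowest mean normalised count of a member was 37.7, so counting error weighs most on such members.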
